A study of Homo sapiens with 24 samples.

Results

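The RAS-MAPK feedback genes examined here were DUSP4, DUSP5, DUSP6, SPRY2, SPRY4, SPRED1, SPRED2, ETV4, ETV5 and PHLDA1. These 10 genes were followed in ChIP-seq for H3K27Ac, the acetylation of lysine 27 on histone H3 that marks active promoters and enhancers. The cells were MCF10A (10A), a human immortalized and non-malignant mammary epithelial line, and MCFDCIS (DCIS), a model of early triple-negative ductal carcinoma in situ. Each line carried a lentiviral short hairpin against ANCO1 (shANCO1), a nuclear ankyrin repeat protein also named ANKRD11, or a control hairpin against GFP (shCTRL). All cells were grown with epidermal growth factor (EGF), insulin, hydrocortisone, cholera toxin and horse serum, and infected cells were selected with puromycin. The 24 libraries fell into 8 groups of 3, formed by the line, the hairpin and whether the chromatin was immunoprecipitated or kept as input. The study states that its shANCO1 #3 cell line was used for the H3K27Ac comparison, so a given hairpin and the loss of ANCO1 cannot be told apart here. Members were the regions whose annotation named 1 of the 10 genes as overlapping or flanking. They numbered 49 of 50284 regions in the comparison of shANCO1 with shCTRL in 10A and 45 of 44790 in DCIS. Against input they numbered 24 of 15490 in 10A shCTRL, 33 of 28607 in 10A shANCO1, 31 of 15482 in DCIS shCTRL and 28 of 16692 in DCIS shANCO1.

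Growth factor receptors such as the EGF receptor activate RAS, which passes the signal through RAF and MEK to the kinase ERK. ERK and its ETS factors switch on genes whose products dampen the same pathway, so that these genes serve as a common transcriptional readout of pathway output. The DUSP members are phosphatases that remove the activating phosphates of MAP kinases, the SPRY and SPRED members are membrane-associated inhibitors of signalling to RAS and RAF, ETV4 and ETV5 are ETS transcription factors of the PEA3 group, and PHLDA1 is a pleckstrin homology-like protein induced by growth factors. DCIS descends from MCF10A cells transformed with mutant HRAS, so the lines differ in this pathway by origin.

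Each region had 1 log2 fold change for the 3 libraries of a group together, that of its representative window, with a false discovery rate (FDR) from the csaw test. No value per library was given, so a fold change has no error of its own and the spread between libraries cannot be read. The FDR comes from a p-value combined over the windows of a region and does not by itself measure that spread. A region was called up or down when its FDR was under 0.05 and its direction column said so. Read depth was not given, and the study states that ChIP-seq was done in triplicate without saying whether the 3 libraries came from separate cultures, so the spread may be technical. The tables against input listed almost only enriched regions, and 100% of the listed regions were called up in 10A shCTRL, 100% in 10A shANCO1, 100% in DCIS shCTRL and 100% in DCIS shANCO1. The basal mammary markers KRT5 and TP63 and the general epithelial marker CDH1 had marked regions in all 4 groups, and the basal marker KRT14 had none. PTPRC, a leukocyte marker, had no marked region, while PECAM1, an endothelial marker, had 1 to 6 per group.

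The knockdown of ANCO1 raised H3K27Ac at each of the 10 feedback genes in 10A. Of the 49 member regions, 29 were up (59.2%) and 0 were down, where over all regions of this comparison 43.6% were up and 0.225% were down. Member regions were wider than all regions (median 2100 against 1000 bp), and the share among regions of like width was not computed in either line. The members' median log2 fold change was 0.85 with a range of -0.80 to 1.70, beside a median of 0.76 over all regions. The rise at these genes was thus close in size to that of a typical region in 10A, and 0 member regions were both called and at least 1 log2 unit above the line's median. All 10 members had at least 1 region up, as did 76.9% of the 14191 protein-coding genes named in this table and 86% of those with 2 or more regions. After the lowest FDR of each gene was multiplied by its number of regions, 9 members stayed under 0.05, and SPRED2, with 15 regions, had 0.147.

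**Figure D1:**
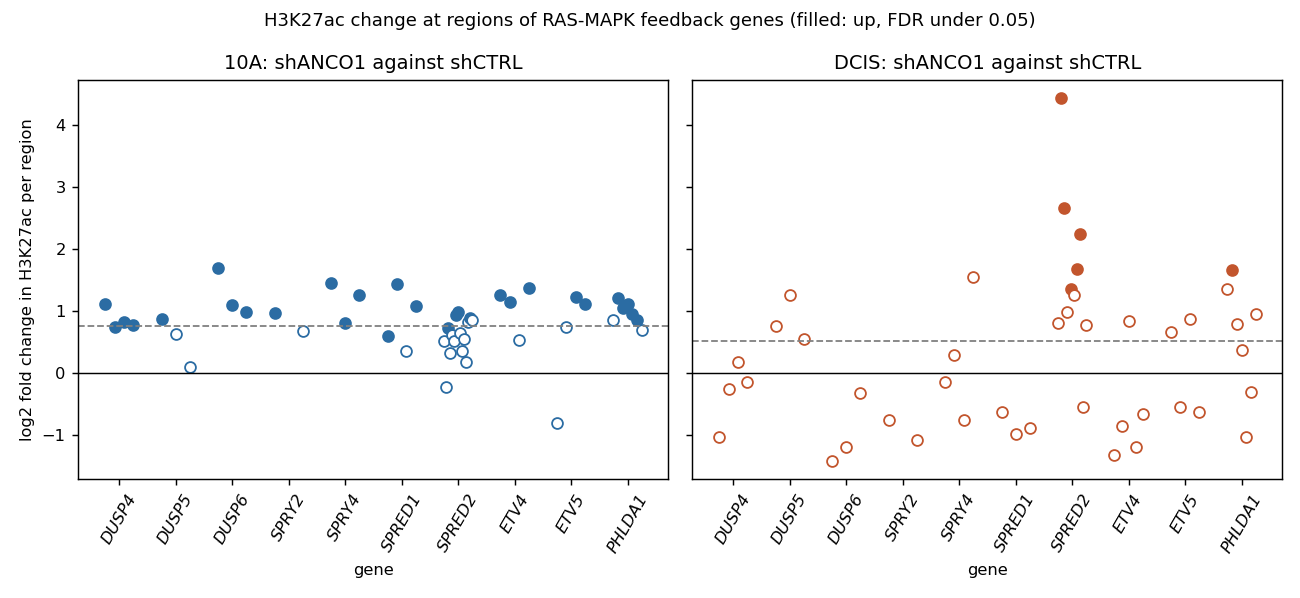
Log2 fold change in H3K27Ac, shANCO1 over shCTRL, of every region at each of the 10 genes (x axis) in 10A (left) and DCIS (right). Each point is 1 region, filled where it was called up. The dashed line is the median of all regions of that line, 0.76 in 10A and 0.52 in DCIS. Filled points appear at all 10 genes in 10A and at SPRED2 and PHLDA1 in DCIS.

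Among the MAP kinase phosphatases in 10A, DUSP6, which acts on ERK in the cytoplasm, had 3 of 3 regions up. The region over its coding exons (chr12:89348601-89352000) rose by 1.09 on the log2 scale (FDR 1.03e-05). The region at its start site (chr12:89351901-89355200) rose by 0.98 (FDR 6.51e-05). The largest change of any member region in 10A was at the end of DUSP6, over its UTR and the sequence downstream (chr12:89346601-89347500), at 1.70 (FDR 0.0012). That region overlapped no region enriched over input with either hairpin in 10A. DUSP4, a nuclear phosphatase of ERK and other MAP kinases, also had all of its regions up, 4 of 4, between 0.75 and 1.11. Its lowest FDR, 0.000523, was over a coding exon and UTR (chr8:29346701-29350200, 0.83). DUSP5, a nuclear phosphatase of ERK, had 1 of 3 regions up, just before its start site (chr10:110495901-110497800), at 0.87 (FDR 0.012). Its region over a coding exon (chr10:110498201-110503100) was at 0.63 (FDR 0.0793), which did not pass. The DUSP5 start region also lies in DUSP5-DT, a divergent transcript, so the signal cannot be assigned to either alone.

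The inhibitors of signalling upstream of RAF gave a mixed picture in 10A. SPRY4 had 3 of 3 regions up, led by the region before its start site (chr5:142325601-142329100) at 1.25 (FDR 7e-06). Its start-site region was at 0.81 (FDR 0.000155), and its largest change, over a coding exon and UTR (chr5:142318601-142322200), was 1.45 (FDR 0.0197). The latter region overlapped no region enriched over input with either hairpin in 10A. SPRY2 had 1 of 2 regions up, the one over its coding exon (chr13:80337401-80340300), at 0.97 (FDR 0.00246). The SPRY2 start-site region was at 0.68 (FDR 0.0697) and was the only 1 of the 10 start-site regions in 10A that did not pass. SPRED1 had 3 of 4 regions up, with 0.60 at the start site (FDR 0.0199) and 1.43 in an intron (chr15:38254001-38256600, FDR 0.00906). In that intron region 2 of 22 windows were up, against 18 of 26 at the start site. SPRED2 had 4 of 15 regions up, between 0.72 and 0.99, with its lowest FDR at the start site (chr2:65430701-65433300, 0.89, FDR 0.00983).

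The transcription factors and PHLDA1 carried several of the lower FDRs in 10A. ETV4 had 3 of 4 regions up. Its start-site region (chr17:43544101-43547200) was at 1.15 (FDR 4.27e-05), and its largest change was in an intron of the longest gene model, 32.5 kb before the canonical start site (chr17:43578801-43579600), at 1.37 (FDR 0.00186). That intron region overlapped no region enriched over input with either hairpin in 10A. All ETV4 regions also overlap DHX8, which the same annotation places there. ETV5 had 2 of 4 regions up, of which the one at the start site (chr3:186106901-186109000) was at 1.22 (FDR 0.000642). An ETV5 intron region (chr3:186075701-186076000) had the lowest value of all members in 10A, -0.80, and did not pass (FDR 0.115). PHLDA1 had 5 of 7 regions up. The lowest FDR of any member in 10A, 4.17e-06, was 11.4 kb from the PHLDA1 start site and downstream of the gene (chr12:76017101-76020400, 1.21), and its start-site region was at 0.86 (FDR 0.000193).

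In DCIS the same knockdown raised H3K27Ac at 2 of the 10 genes, SPRED2 and PHLDA1. Of the 45 member regions, 6 were up (13.3%) and 0 were down, where over all regions of this comparison 23.6% were up and 4.86% were down. The median log2 fold change was 0.18 with a range of -1.41 to 4.43, beside 0.52 over all regions. Values split nearly evenly by sign, with 23 positive and 22 negative (51.1% positive), while 66.9% of all regions were positive. A gene with at least 1 region up was found among 31.9% of the 14022 protein-coding genes named, and among 41.3% of those with 2 or more regions. The widths of regions were similar in the lines, with a median of 2100 bp for members in 10A and 2300 bp in DCIS, both wider than all regions (1000 and 900 bp).

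SPRED2 held 5 of the 6 regions up in DCIS, and all 5 lay inside the gene between 43.1 and 116 kb from its start site. The largest change was over a coding exon (chr2:65315701-65316900), at 4.43 (FDR 1.09e-11) with 11 of 11 windows up. An intron region nearby (chr2:65319601-65320700) was at 2.66 (FDR 1.25e-07). Closer to the start, 3 more regions were up, at 2.24 (chr2:65387101-65389500, FDR 1.53e-07), 1.67 (chr2:65382201-65384800, FDR 0.00215) and 1.35 (chr2:65366101-65368400, FDR 0.0103). The start-site region of SPRED2 did not pass, at -0.54 (FDR 0.686). In 10A the region over the same coding exon (chr2:65314601-65317300) was at 0.52 and did not pass (FDR 0.228). The difference between the lines was not tested, since no values per library were given.

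**Figure D2:**
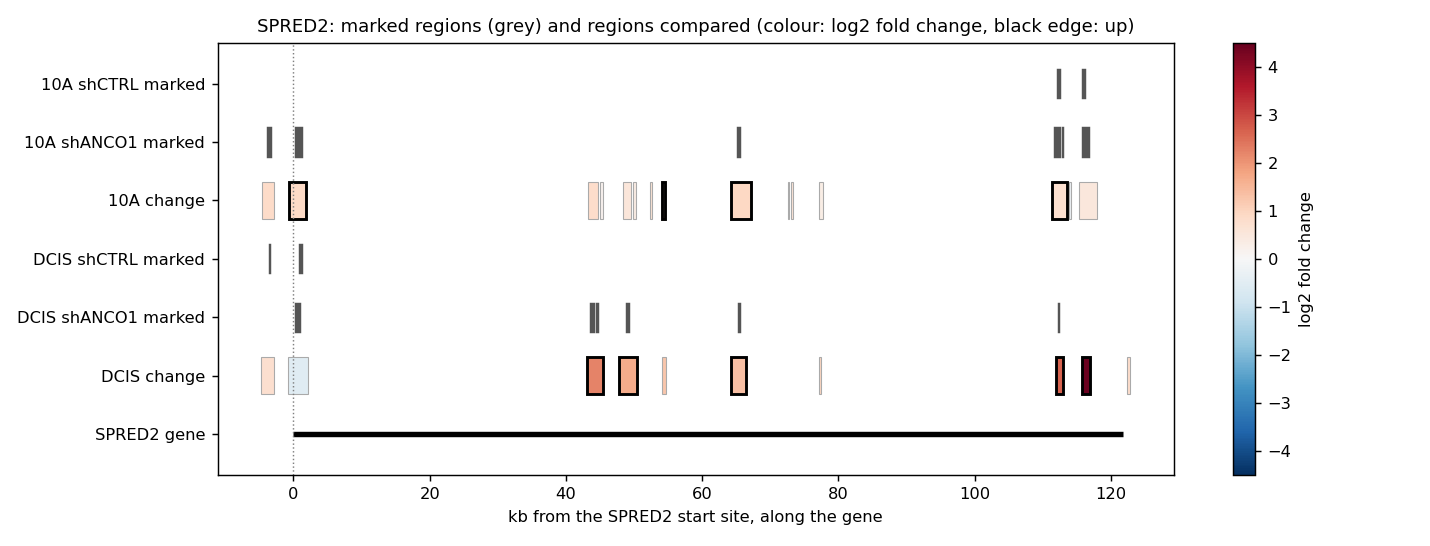
SPRED2 regions by distance from the start site in kb (x axis). Grey blocks are regions enriched over input in each of 4 groups, and coloured blocks are regions compared between shANCO1 and shCTRL, coloured by log2 fold change with a black edge where called up. In DCIS the 5 regions called up lie between 43.1 and 116 kb into the gene, and the start-site region is not called.

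Marking over input was given separately. In DCIS shCTRL, SPRED2 had 2 marked regions, both within a few kb of its start site, and none inside the gene body where the 5 regions rose. In DCIS shANCO1 it had 6, of which 5 lay inside the 4 lower-ranked regions called up. One of these (chr2:65367001-65367400) was at 7.15 over input on the log2 scale (FDR 5.07e-14), the highest value at SPRED2. The region with the change of 4.43 overlapped no region marked in either DCIS group, so its large value rests on the comparison of the hairpins alone. In 10A a region at that exon was marked with both hairpins.

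The region marked at 7.15 in DCIS shANCO1 lies in the same compared region as the start of a shorter SPRED2 transcript in RefSeq. The RefSeq promoters (assembly GRCh38.p14) of both SPRED2 starts are shown because the compared region at the inner start was called up in DCIS and the one at the outer was not. The difference between these regions was not tested, 3 of the 17 windows of the inner region were up, and both starts had a marked region nearby in DCIS shANCO1 (4.66 over input at the outer). Each covers the 250 bases before the start and the first 20 of the transcript. Also shown are the middle 200 bases of the region with the largest change in DCIS, from hg38. Capitals mark letters of the 4 motifs searched on either strand, AP-1 (TGACTCA or TGAGTCA), CRE (TGACGTCA), ETS (CCGGAA) and TEAD (GGAATG). The inner promoter holds 1 AP-1 match, which runs across the start itself (chr2:65366778-65366784), and the outer promoter holds none of the 4.
SPRED2 outer promoter, chr2:65432580-65432849, minus strand: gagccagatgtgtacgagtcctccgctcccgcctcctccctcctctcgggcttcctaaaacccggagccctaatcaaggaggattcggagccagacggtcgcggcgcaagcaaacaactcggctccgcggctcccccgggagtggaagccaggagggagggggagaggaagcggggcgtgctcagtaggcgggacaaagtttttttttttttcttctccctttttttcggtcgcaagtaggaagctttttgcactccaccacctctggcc
SPRED2 inner promoter, chr2:65366759-65367028, minus strand: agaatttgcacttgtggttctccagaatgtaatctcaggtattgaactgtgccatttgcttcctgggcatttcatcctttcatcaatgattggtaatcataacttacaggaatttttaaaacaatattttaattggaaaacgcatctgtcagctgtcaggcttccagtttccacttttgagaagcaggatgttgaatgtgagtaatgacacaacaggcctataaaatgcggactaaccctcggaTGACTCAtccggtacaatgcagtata
SPRED2 region with the largest change, chr2:65316201-65316400, plus strand: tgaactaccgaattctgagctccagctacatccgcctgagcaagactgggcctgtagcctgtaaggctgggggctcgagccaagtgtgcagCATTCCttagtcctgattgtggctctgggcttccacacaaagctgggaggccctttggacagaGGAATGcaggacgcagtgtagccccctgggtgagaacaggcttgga
AP-1 letters stood in 4.6% of the 35116 RefSeq promoters of this length. The stretch at the exon has 2 TEAD matches. A window of the same length, 200 bp at the middle of a region, held at least 1 in 12% of all regions in DCIS. How often such a window held 2 was not counted. A match is a description of letters and was not linked to any factor here.

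PHLDA1 had the remaining region up in DCIS, downstream of the gene and 10.3 kb from its start site (chr12:76017201-76021500), at 1.66 (FDR 0.00154). Of its 42 windows 4 were up and 1 was down. It overlaps the 10A region with the lowest FDR of all members. This region was assigned to PHLDA1 as a flanking gene, and with overlapping annotation alone SPRED2 would be the 1 member with a region up. The PHLDA1 start-site region in DCIS was at -1.03 (FDR 0.847).

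The other 8 members had no region past the threshold in DCIS. DUSP6 had 3 regions, all with negative values, and came nearest to a loss. The one downstream of the gene (chr12:89344601-89344900) was at -1.41 (FDR 0.0502), and the one over its coding exons and end (chr12:89345901-89350800) was at -1.18 (FDR 0.0664) with 11 of 43 windows down. SPRY2, with values of -0.75 and -1.08, and SPRED1, with values from -0.98 to -0.63, also had negative values throughout. The direction column was mixed at the DUSP6 start-site region (-0.32, FDR 0.925) and at a SPRED1 intron region (chr15:38254501-38258400, -0.98). DUSP5 was positive in 3 of 3 regions, with its lowest FDR of 0.0698 over a coding exon (chr10:110498401-110499600, 1.26). DUSP4 ranged from -1.02 to 0.18 and ETV5 from -0.62 to 0.87, with lowest FDRs of 0.234 and 0.341. ETV4 ranged from -1.31 to 0.84, with a lowest FDR of 0.271. SPRY4 ranged from -0.75 to 1.55, the latter at its start site (FDR 0.103). A value that did not pass does not show that H3K27Ac stayed level. These values are those of representative windows and need not give the size of a region's change. The SPRY4 value of 1.55 did not pass in DCIS, where 1 of 41 windows was up. The SPRED1 start-site value of 0.60 passed in 10A, where 18 of 26 were up.

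The lines were set side by side at each gene's start-site region, taken as the region over the canonical start in GENCODE or the nearest within 1 kb. In 10A, 9 of the 10 start-site regions were up, where 63.1% of 11340 genes had theirs up. Their values were positive at all 10 members, from 0.60 at SPRED1 to 1.22 at ETV5, with a median of 0.86 beside 0.82 for all genes. In DCIS, 0 of the 10 were up and 0 were down, where 6.46% of 11159 genes had theirs up. DCIS values were negative at 7 members, from -1.18 at ETV4 to 1.55 at SPRY4, with a median of -0.58 beside 0.14 for all genes. These are the signs of representative windows. The direction column was mixed rather than down at DUSP6, SPRED2 and ETV5, and none of the 10 regions had a window down. Whether the lines differ at these sites was not tested. Of the member regions not taken as a start-site region, 20 of 39 were up in 10A (51.3%) where 38.8% of all such regions were. In DCIS 6 of 35 were up (17.1%) where 28.4% of all such regions were. Some of these regions still lie within 1 kb of a start, such as those in 10A at DUSP6 (0.501 kb, up) and DUSP5 (0.294 kb, not called). The shares therefore do not describe distal regions alone.

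**Figure D3:**
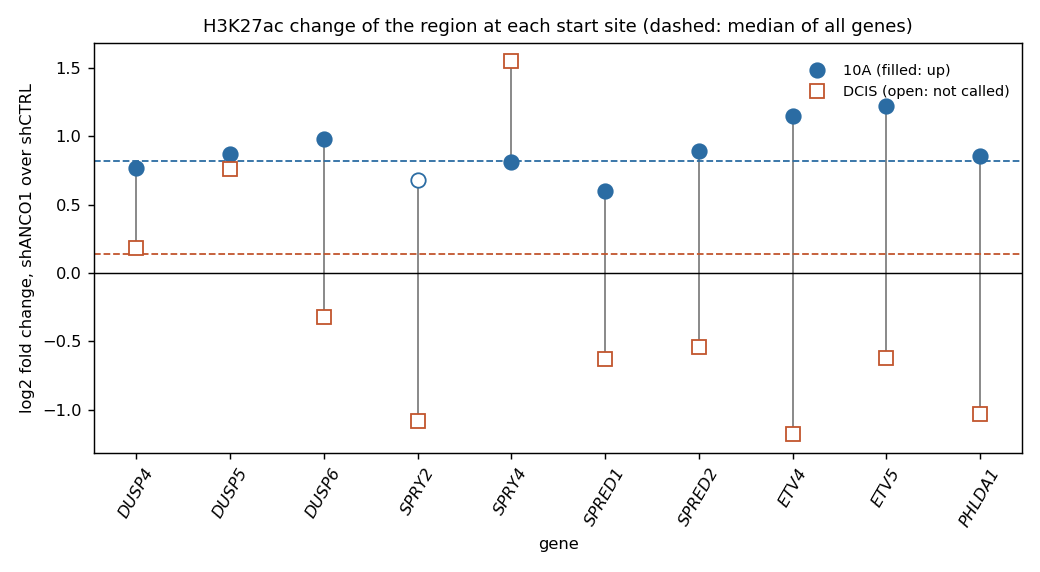
Log2 fold change in H3K27Ac, shANCO1 over shCTRL, of the start-site region of each gene (x axis) in 10A (circles) and DCIS (squares), filled where called up and joined by a grey line. Dashed lines are the medians over all genes, 0.82 in 10A and 0.14 in DCIS. The 10A value is higher at 9 of the 10 genes, and SPRY4 is the exception. The DCIS value at SPRY4 is that of a representative window in a region with 1 of 41 windows up.

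Start-site promoters from RefSeq are shown for DUSP6, SPRY2 and PHLDA1, 3 of the 7 members positive in 10A and negative in DCIS at this site. They are given in the same form and with the same motifs in capitals.
DUSP6, chr12:89352482-89352751, minus strand: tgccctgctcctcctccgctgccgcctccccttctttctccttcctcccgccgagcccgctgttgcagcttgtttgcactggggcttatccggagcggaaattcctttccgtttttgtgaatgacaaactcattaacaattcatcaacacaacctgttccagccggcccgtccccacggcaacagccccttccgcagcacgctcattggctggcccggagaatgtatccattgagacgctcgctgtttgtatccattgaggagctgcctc
SPRY2, chr13:80341107-80341376, minus strand: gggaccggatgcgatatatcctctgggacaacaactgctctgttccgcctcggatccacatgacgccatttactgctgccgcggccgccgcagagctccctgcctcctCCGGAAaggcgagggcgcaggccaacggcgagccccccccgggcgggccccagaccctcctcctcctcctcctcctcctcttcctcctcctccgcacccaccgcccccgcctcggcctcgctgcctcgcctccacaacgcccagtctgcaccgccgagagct
PHLDA1, chr12:76031757-76032026, minus strand: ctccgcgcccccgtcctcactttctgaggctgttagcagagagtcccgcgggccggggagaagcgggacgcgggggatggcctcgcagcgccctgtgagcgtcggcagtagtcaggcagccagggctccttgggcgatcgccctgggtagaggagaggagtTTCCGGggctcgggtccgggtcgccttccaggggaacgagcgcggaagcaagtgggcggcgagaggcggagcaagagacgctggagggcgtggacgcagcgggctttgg
SPRY2 and PHLDA1 hold 1 ETS match each and DUSP6 none. RefSeq promoters were matched for 9 start sites of 6 members, and ETS letters stood in 2 of these 9, where 16.2% of all promoters of this length held them. CRE letters stood in 0 of the 9 (1.83% of all) and TEAD letters in 1, at SPRY4 (12.9% of all). DUSP5, ETV4 and ETV5 were not matched. DUSP4 was left out of the promoter search, so the counts among the 9 do not cover it. The promoters of SPRY4, SPRED1 and the other SPRY2 starts are not printed. SPRED1 had the same signs as the 3 shown, and its promoter held none of the motifs.

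Set side by side, 42 regions of members in 10A overlapped one in DCIS, where 1 DCIS region may serve several in 10A. Of these pairs, 22 were positive in both lines and 20 (47.6%) were positive in 10A and negative in DCIS, against 25% of the 29259 pairs over all regions. In 25 pairs (59.5%, against 33.7% over all regions) the 10A region was up and the DCIS region not called. In 3 (7.14%, against 16.3%) both were up, and in 5 (11.9%, against 12.8%) the DCIS region alone was up. The signs are those of representative windows, and DCIS regions with a mixed direction are among those counted negative. The zero of each scale is set by normalization within a line. With each line centred on its own median, 10 pairs were positive in both (23.8%, against 32.6% over all regions) and 18 were positive in 10A and negative in DCIS (42.9%, against 21%).

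The lines also differed in how much of these genes was marked before the knockdown. In shCTRL cells, regions enriched over input covered 17.6 kb at 8 members in 10A and 43.3 kb at 9 members in DCIS. Per Mb of all marked sequence, the members took 1948 bases in 10A shCTRL and 3954 in DCIS shCTRL. Marking was wider in DCIS shCTRL than in 10A shCTRL at 8 members, and narrower at DUSP5 and SPRED2. SPRY2 had 200 bp marked in 10A shCTRL and 5200 bp in DCIS shCTRL, and DUSP6 had 2400 and 6300 bp. ETV4 and ETV5 had no marked region listed in 10A shCTRL and had 1700 and 2600 bp in DCIS shCTRL. The groups were tested against input separately, and these differences were not tested. Covered length can also move with read depth, which was not given.

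With shANCO1 the covered length moved in opposite ways in the lines. In 10A it reached 48.1 kb and was wider at 10 of 10 members, while the whole table went from 9.03 to 25.2 Mb, so that the members' share was 1906 bases per Mb. DUSP4 went from 3900 to 8100 bp, SPRY4 from 800 to 5600 bp and PHLDA1 from 7300 to 13400 bp. In DCIS the members' length came to 36.6 kb, narrower at 7 members, equal at PHLDA1 (10300 bp with both hairpins) and at DUSP5 (0 with both), and wider at SPRED2 alone (600 to 2700 bp). The whole DCIS table went from 11 to 11.9 Mb, and the members' share was 3085 bases per Mb with shANCO1. SPRY2 went from 5200 to 2600 bp and DUSP6 from 6300 to 4200 bp. These changes in length between hairpins were also not tested and can move with read depth. The comparison of shANCO1 with shCTRL in DCIS called 0 of 45 member regions down.

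**Figure D4:**
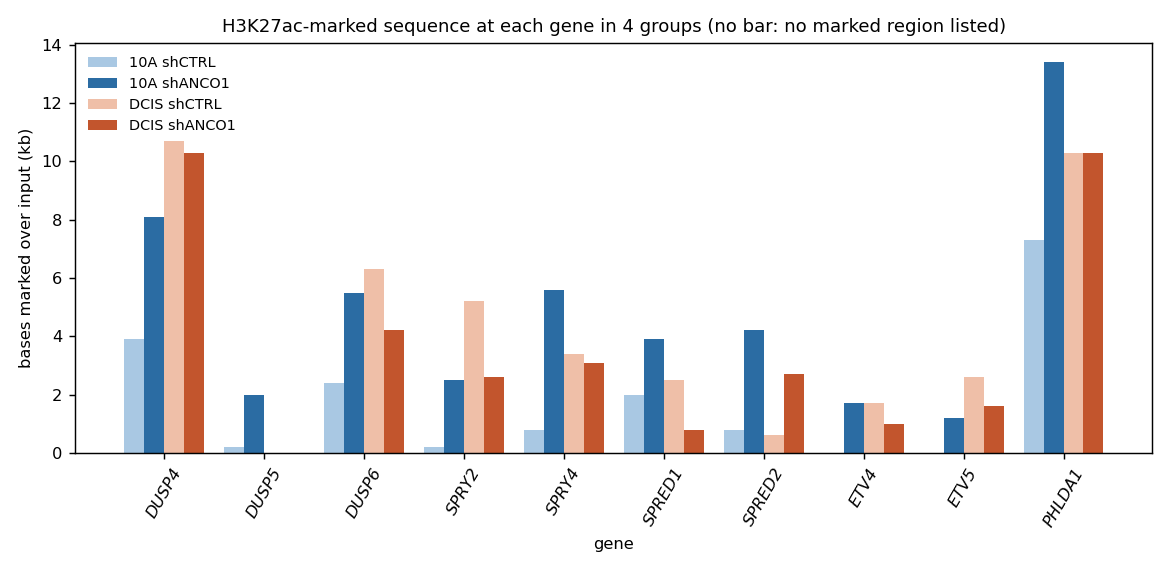
Sequence enriched for H3K27Ac over input, in kb, at each gene (x axis) in 10A shCTRL, 10A shANCO1, DCIS shCTRL and DCIS shANCO1. Bars start at 0 and have no error bar, since each is the length covered by the marked regions of a group, with no value per library. In 10A the shANCO1 bar is the taller at all 10 genes, and in DCIS it is the taller at SPRED2 alone.

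At the start sites, 6 of the 10 members were marked in 10A shCTRL, where 24.8% of 20020 genes were, and all 10 were marked in 10A shANCO1, where 46.4% were. The 4 members without a mark in 10A shCTRL were SPRY2, SPRED2, ETV4 and ETV5. Their start-site marks in 10A shANCO1 stood at 4.22, 3.08, 2.39 and 3.39 over input on the log2 scale. In DCIS 9 members were marked with each hairpin, where 33.5% and 34.7% of genes were, and DUSP5 was the exception with both. The median over input of the members' marked start sites was 2.49 and 3.79 in 10A and 3.87 and 4.81 in DCIS, shCTRL first. Over all genes marked at the start site it was 2.73 and 3.26 in 10A and 3.75 and 4.43 in DCIS. The 2 member medians in 10A cover different sets, 6 members with shCTRL and 10 with shANCO1.

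**Figure D5:**
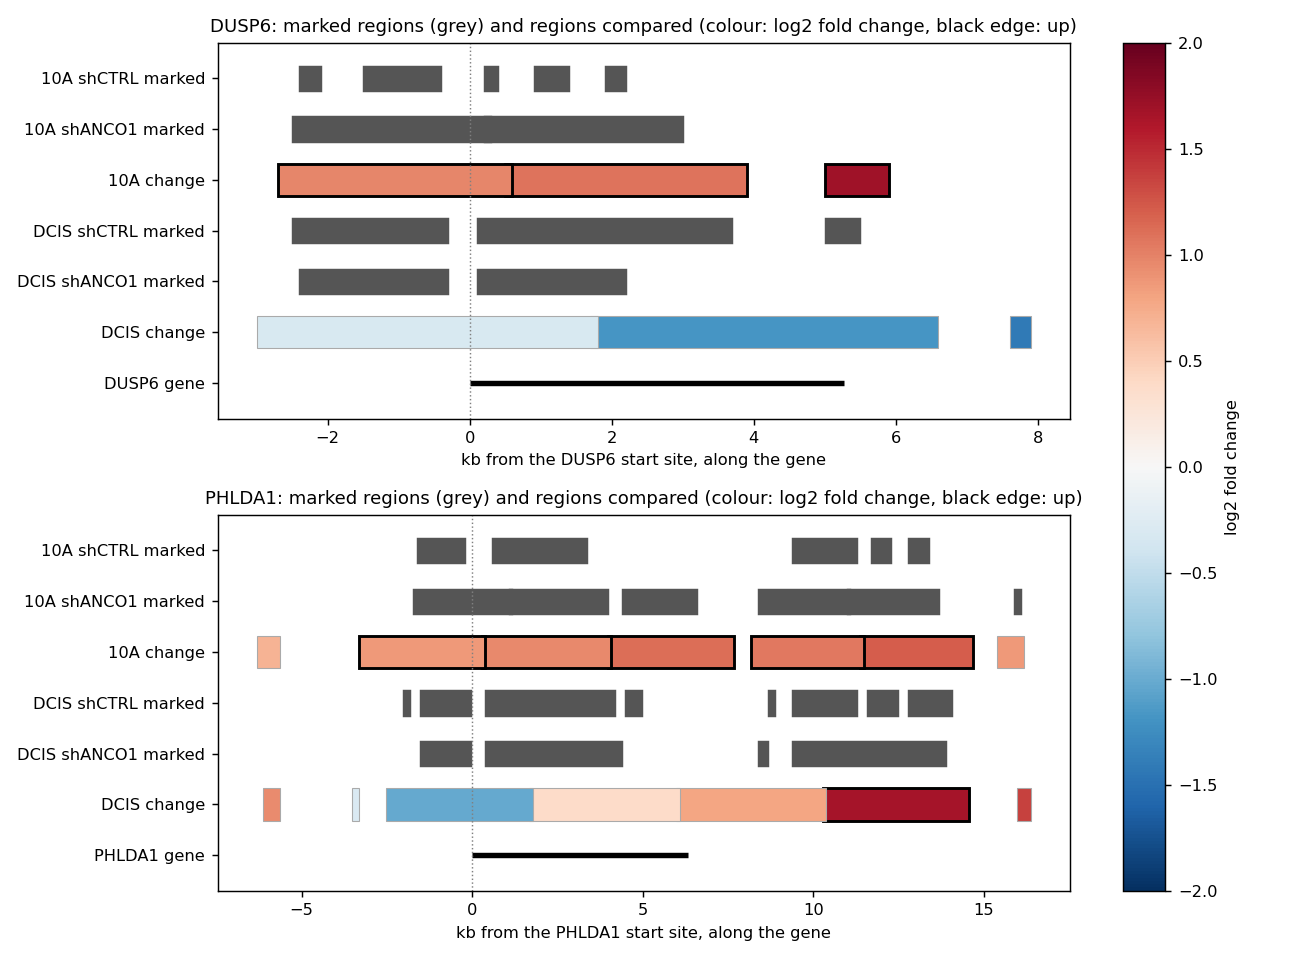
DUSP6 (top) and PHLDA1 (bottom) by distance from the start site in kb (x axis), with regions enriched over input in grey and regions compared between hairpins coloured by log2 fold change, black-edged where called up. All 3 DUSP6 regions are up in 10A and none is called in DCIS. At PHLDA1 the 1 region called up in DCIS lies downstream of the gene.

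Regions that changed could be set against marking in the same line. In 10A, 17 of the 49 member regions overlapped a region marked in shCTRL (34.7%, against 23.5% of all regions) and 30 one marked in shANCO1 (61.2%, against 45.2%). Of the 29 up, 25 were marked in shANCO1 (86.2%, against 70% of all regions up), 9 of them in shANCO1 alone (31%, against 35.5%), and 4 were marked in neither (13.8%, against 29.9%). These 4 held the largest called changes in 10A at DUSP6 (1.70), SPRY4 (1.45), ETV4 (1.37) and SPRED2 (0.99). In DCIS, 20 of the 45 overlapped a region marked in shCTRL (44.4%, against 27%) and 23 one marked in shANCO1 (51.1%, against 30.3%). Of the 6 up in DCIS, the PHLDA1 region was marked with both hairpins, 4 SPRED2 regions in shANCO1 alone and 1 SPRED2 region in neither. Over all regions up in DCIS, 38.4% were marked in shANCO1, 24.5% in shANCO1 alone and 61.5% in neither.

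Genes of the cascade itself and other genes that respond to ERK gave the setting. Of 20 genes of the RAS-ERK cascade, 19 had a region in each line and HRAS had none. In 10A 43 of their 83 regions were up and 0 down (51.8% up, against 43.6% of all regions, median 0.85), at 18 of the 19 genes, where 76.9% of all genes had a region up. In DCIS 11 of 61 were up and 1 down (18% up, against 23.6%, median 0.25), at 7 of the 19 genes, where 31.9% of all genes had one. MAP2K1, which encodes the kinase MEK1, was among the lowest FDRs in both lines, with 1.04 in 10A (chr15:66386301-66388800, FDR 9.11e-05) and 2.01 in DCIS (chr15:66389101-66392200, FDR 2.35e-07). NF1, a GTPase-activating protein that turns RAS off, was at 1.20 in 10A (chr17:31320701-31322100, FDR 3.23e-05). FRS2, an adaptor of FGF receptors, was at 2.06 in DCIS (chr12:69569701-69570000, FDR 0.000642). The 1 region down in DCIS was at the RAF kinase gene ARAF (-1.82, FDR 0.00406), named after its value was seen.

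Of 22 other ERK-response and feedback genes, 19 had a region in each line. In 10A 48 of 76 regions were up and 0 down (63.2% up, against 43.6% of all regions, median 0.88). In DCIS 22 of 77 were up and 5 down (28.6% up, median 0.64), where 23.6% of all regions were up and 4.86% down. FOSL1, an AP-1 subunit, was up in both, at 1.39 in 10A (chr11:65898101-65900500, FDR 4.47e-08) and 2.25 in DCIS (chr11:65901601-65904200, FDR 7.25e-08). DUSP1, a nuclear MAP kinase phosphatase, was at 1.24 in 10A (chr5:172765801-172770500, FDR 6.26e-07). IL17RD, an inhibitor of FGF receptor signalling to ERK, fell in DCIS in 4 regions, the lowest at -3.48 (chr3:57150401-57152700, FDR 6.22e-06) with 18 of 19 windows down. The fifth region down was at the ephrin receptor gene EPHA4 (-1.39, FDR 0.0222), named after its value was seen.

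Motif letters were counted in the 500 bp at the middle of each region. This window covers a smaller part of member regions, with a median width of 2100 bp in 10A and 2300 bp in DCIS, than of all regions (1000 and 900 bp). The shares therefore describe the middle of a region and not its full length. AP-1 letters stood in 5 of 49 member regions in 10A (10.2%, against 18.3% of all regions) and in 4 of 45 in DCIS (8.89%, against 15.4%), and in 0 of the 6 up in DCIS. ETS letters stood in 4 regions in each line (8.16% and 8.89%, against 11.5% and 12.9%). TEAD letters stood in 19 in 10A and 13 in DCIS (38.8% and 28.9%, against 27.9% and 27.1%), and CRE letters in 0 in each. In the middle 200 bp the TEAD shares were 12.2% in 10A and 8.89% in DCIS, against 12.5% and 12% of all regions, so the higher share of members did not hold in the shorter window. The AP-1 match at the inner SPRED2 promoter lies inside the 500 bp window of its 10A region and outside that of its DCIS region. The PHLDA1 region up in DCIS also held an AP-1 match outside its window (chr12:76020882-76020888). The other regions up in DCIS held no AP-1 match over their full length. Matches over the full length of all regions were not counted. Regions of the same gene and overlapping regions share sequence, so these counts are not independent.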

How the data were processed

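H3K27Ac and input libraries of 10A and DCIS with shANCO1 or shCTRL (24 libraries, 8 groups of 3) entered the deposited tables. The study's methods state alignment to GRCh38 with BWA and Rsubread, removal of duplicates with SAMtools, testing with csaw and annotation with ChIPpeakAnno. The window filter, the normalization and the merging distance are not given in the sources used here. The authors deposited, per region, the log2 fold change of a representative window, a combined p-value and its Benjamini-Hochberg FDR, and the numbers of windows tested, up and down. The deposited values give 1 result per region and none per library, so depth, replicate error and a new fit could not be had from them.

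The 6 tables comprised 2 of shANCO1 against shCTRL and 4 against input. The authors' columns of comparison were used as the measurement, since no other values per region are held. Regions of the 10 genes were taken from the overlap, left and right annotation columns, and calls used the FDR under 0.05 with the direction column. Start sites came from GENCODE release 44 on hg38, and no region in any table ran past a chromosome end of that build. Scripts in Python 3.11.15 with pandas 2.3.3 were tested on simulated tables. Named for each member and line were the start-site region, the region with the lowest FDR and the largest called change, and for each pathway list the 2 genes with the lowest FDR in each line. The members and lists were chosen with earlier results of these data known. Alternatives were other FDR and size thresholds, the direction from the sign, other gene assignments, at least 5 windows, other overlaps, another start-site choice, centring on the line's median and a 200 bp motif window.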

Additional observations from a re-analysis of the deposited data

How the results depend on the processing

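No paired analysis was possible because the deposited tables hold 1 value per region and no value per library. For the same reason no library could be left out. In 10A the 29 member regions up came to 19 at an FDR under 0.01, to 15 when the change also had to reach 1 log2 unit and to 0 when it had to lie 1 unit from the line's median, where the members with a region up also came to 0. In DCIS the member regions down came to 2 at an FDR under 0.1, and the members with a region up to 1 with overlapping annotation alone and to 1 with the gene body and 5 kb upstream. The 24 marked member regions of 10A shCTRL came to 9 at an FDR under 1e-10. A reciprocal overlap of 50% left 26 pairs, of which 12 were positive in both lines and 14 positive in 10A and negative in DCIS. Centring gave 10 and 18, so under both settings pairs of opposite sign outnumbered those positive in both, unlike the 22 and 20 reported. For the RAS-ERK cascade an FDR under 0.01 left 21 regions up in 10A and 6 in DCIS. For the other ERK-response genes in DCIS overlapping annotation alone left 13 up, and an FDR under 0.01 left 3 down. In 200 bp windows AP-1 letters stood in 2 member regions in 10A and 0 in DCIS, ETS letters in 2 and 2, and TEAD letters in 6 and 4, where the window is shorter by construction. The TEAD shares of members then lay below those of all regions (12.2% against 12.5% and 8.89% against 12%), having lain above them at 500 bp. The cause of the other shifts was not tested. The other 77 values stayed within 1.5 times the values reported.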
